A study of Mus musculus with 12 samples.

Results

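The 80 genes described here encode proteins of the cytosolic ribosome, and they were taken from a count table of 23420 genes by their symbols: Rps or Rpl followed by a number with at most 1 of the letters a, l, x or y, together with Rpsa and the stalk genes Rplp0, Rplp1 and Rplp2. They comprise 31 genes of the small subunit (Rps, Rpsa) and 49 of the large subunit (Rpl, Rplp), spread over 19 chromosomes, with 14 on chromosome 7. The table also holds 7 ribosomal protein genes whose symbols do not follow this pattern, such as Fau and Gnb2l1, and these are given below as a separate list. RNA was measured in basal epithelial cells of the hard palate from 6 FVB mice, each carrying K5-tTA (+/-) and tetO-H2B-GFP (+/-). The keratin 5 promoter restricts the transactivator tTA to basal keratinocytes, where it switches on an H2B-GFP fusion histone, and doxycycline stops new synthesis of this label. After a chase of 14 days, CD49f-stained cells of each mouse were sorted by label. GFP-HI cells are called infrequently dividing by the submitters and GFP-LO cells frequently dividing, and each fraction gave 6 libraries. Mouse B7F was 71 days old, and the other 5 mice (B1M, B3M, B4M, B5M, B7M) were 49 days old. All 12 samples carry both transgenes and had the chase, so the comparison is between label levels within a mouse and not with untreated cells.

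A ribosome is built from ribosomal RNA and one copy of most of these proteins, so their genes are generally expressed together and at high levels. The small subunit decodes the mRNA, and the large subunit forms peptide bonds and carries the stalk of P proteins that recruits elongation factors. Ribosomal protein mRNAs are short and typically begin with a C followed by a run of pyrimidines, the terminal oligopyrimidine (TOP) tract, through which mTORC1 and LARP1 control their translation and stability. Ribosome output is linked to growth and division, which gives the family its interest in a comparison of label-retaining with label-diluting cells.

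Libraries held 6678444 to 10547665 counts, of which the pre-ribosomal RNA gene Rn45s took 31.5% to 59.8%. The remaining 4030757 to 6419834 counts included 1.90% to 4.54% from the 80 genes. Levels are given in CPM, counts scaled for library size by the trimmed mean of M-values (TMM), and levels per length in RPKM, the CPM divided by exonic length in kilobases. Basal keratinocyte markers were abundant in both fractions, with the 6 listed genes summing to 13812 to 23401 CPM. All 6 had a negative log2 fold change between the fractions (GFP-HI over GFP-LO, median -0.10) and none passed edgeR's test; Krt5 was at -0.16 and lower in GFP-HI in 6 of 6 mice (edgeR adjusted p = 0.42). The suprabasal list summed to 395 to 1545 CPM in the GFP-HI libraries and 304 to 1203 CPM in the GFP-LO ones. The fibroblast list reached at most 12.8 CPM, the endothelial list 4.91 CPM, the immune list 23.9 CPM and the melanocyte list 6.41 CPM, and the erythroid marker had no count in any library. In such bulk samples, fewer cells of a type and less RNA per cell cannot be told apart.

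The start of the transcript is the feature for which ribosomal protein mRNAs are known, so the region around the RefSeq gene start (GRCm38.p6) was searched. The search looked on the sense strand for an unbroken run of at least 6 bases, each C or T and opening with C, that began within 20 bases on either side of the start. Of the 80 genes, 60 had a promoter in the RefSeq table, and 40 of the 60 (66.7%) held such a run, against 34.8% of all 27025 genes in the table and 35.2% of the other tested genes. The 6 stretches of 40 bases, from 25 bases before the start, belong to genes named in the comparison below and serve as examples. Capitals mark the run.
Rps26, chr10:128626492-128626531, minus strand: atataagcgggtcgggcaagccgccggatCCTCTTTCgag
Rpl14, chr9:120571492-120571531, plus strand: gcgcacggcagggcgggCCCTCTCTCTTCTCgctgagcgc
Rpl4, chr9:64173362-64173401, plus strand: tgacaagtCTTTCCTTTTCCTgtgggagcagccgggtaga
Rpl38, chr11:114668555-114668594, plus strand: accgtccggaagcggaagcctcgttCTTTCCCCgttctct
Rpl36a, chrX:134585629-134585668, plus strand: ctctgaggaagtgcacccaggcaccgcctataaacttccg
Rps28, chr17:33824548-33824587, minus strand: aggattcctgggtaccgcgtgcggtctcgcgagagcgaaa
The run of Rpl38 starts at the first base of the RefSeq annotation. That of Rpl4 starts 17 bases before this base and that of Rps26 starts 4 bases after it, whereas the windows of Rpl36a and Rps28 hold none. The gene model counted for Rpl38 begins at position 114668543, upstream of the stretch shown. A run is a description of the letters at the annotated start, and the start used in these cells was not measured. The 39 tested genes with a run had a median log2 fold change between the fractions of 0.10, and the 17 without one had 0.09.

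Of the 80 genes, 75 had enough counts to be tested, all 31 of the small subunit and 44 of the large. Per length they ranged from 2.08 to 1533 RPKM over the mean of the 12 libraries, with a median of 192 RPKM, against 6.42 RPKM for all tested genes. The median was 229 RPKM for small subunit genes and 180 RPKM for large subunit genes. Rplp1, a stalk protein, was highest at 1533 RPKM, followed by Rps20 of the small subunit head at 1310 RPKM. Rpl32 of the large subunit was also among the 4 highest, at 983 RPKM. The lowest tested genes were Rpl34 at 2.08 RPKM, Rps27 at 4.65 RPKM, Rps15a at 15.9 RPKM and Rpl29 at 24.6 RPKM. Rps15a has by far the longest annotated exons of the family, 5134 bases, which divides its 56.1 to 117 CPM by a large length. The median length of the 80 genes was 706.5 bases, with Rps28 the shortest at 327 bases.

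**Figure D1:**
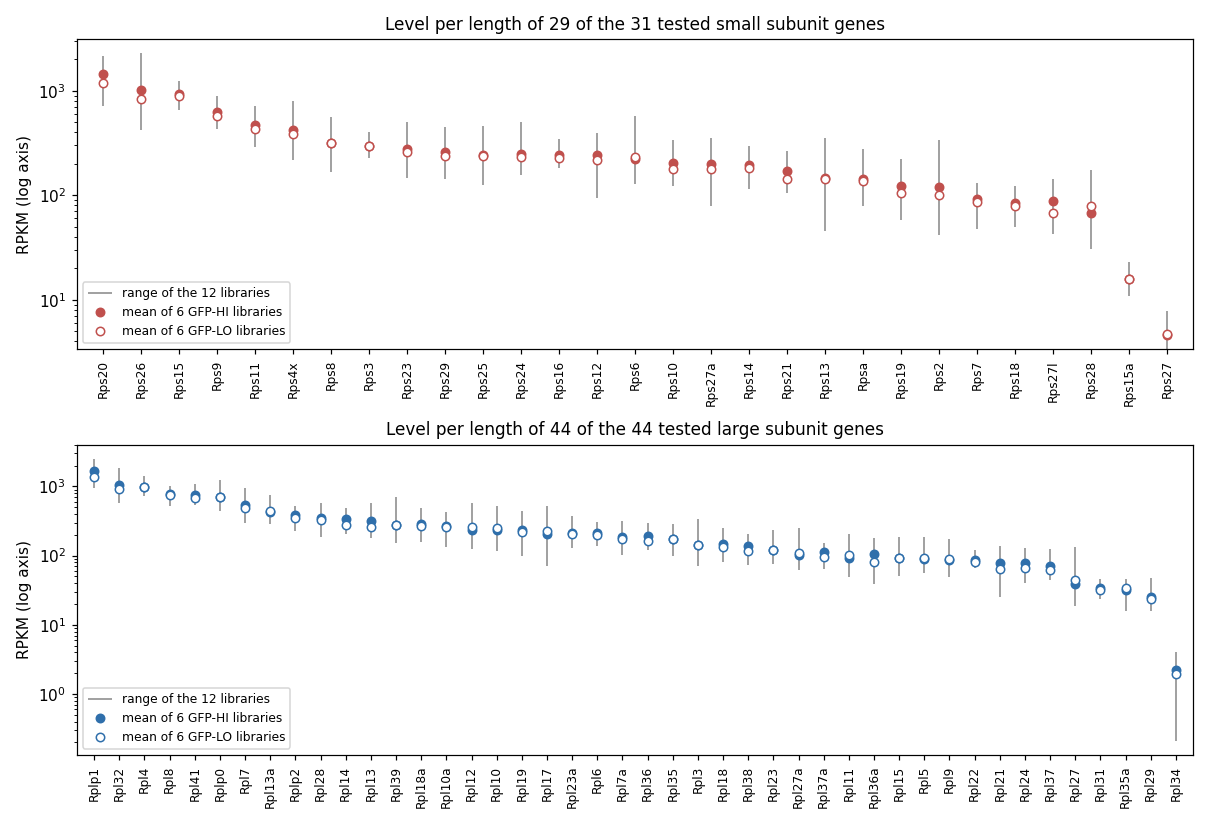
Level per length (RPKM, log axis) of 73 of the 75 tested genes (2 small subunit genes that are not reported here are left out), small subunit above and large subunit below, ordered by their mean. Filled points are the mean of 6 GFP-HI libraries, open points that of 6 GFP-LO libraries, and grey lines the range of the 12 libraries (for Rps27 the range reaches 0, which a log axis cannot show); the median gene lies at 192 RPKM, Rpl34 and Rps27 lie far below, and the open and filled points of a gene almost coincide.

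Among the lowest counts of the family were those of 4 genes whose exons lie largely inside another gene model. Rpl26, a large subunit protein of the tunnel exit side, had 0 counts in all 12 libraries, and Rpl30 had 0 to 9. Rpl34 had 1 to 24 counts per library and Rps27 had 0 to 34, while the median tested member of the family lay at 192 RPKM. In the deposited table, 95.8% of the exon bases of Rpl26 also belong to the exons of Gm15772 on the same strand. The share was 76% for Rpl30 (with Gm12191), 67.2% for Rpl34 (with Rpl34-ps1) and 60% for Rps27 (with Gm9846). These were the only 4 of the 80 genes with 50% or more of their exon bases in another gene, and the only ones that shared more than a single base with a gene on the same strand. The overlapping models were themselves at 0 counts in all 12 libraries, except Rpl34-ps1 with at most 1 count. Whether counting left out reads that fall in 2 genes is not given in the sources used here, and its part in these low counts was not tested. Rpl5, Rpl31, Rps25, Rps27a, Rpl32 and Rpl35 share 0.88% to 47.8% of their exon bases with a gene on the other strand, and none of them was near 0, with at least 237 counts in each library. Rps15a and Rpl29, the next lowest per length, share none.

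The other 3 untested genes are copies named after a widely expressed member. Rpl10l, known from testis, had 0 to 3 counts per library against 684 to 3253 for Rpl10, which joins the large subunit late in its assembly. Rpl39l, also known from testis, had 0 to 3 counts against 499 to 2179 for Rpl39, a small protein of the exit tunnel. Rpl3l, known from heart and skeletal muscle, had 0 to 4 counts against 769 to 3665 for Rpl3, which lies near the peptidyl transferase centre. A count of 0 allows up to 3 counts, or 0.258 to 0.433 CPM in these libraries, for counting error only. Rps27l, a p53 target and copy of Rps27, was the exception among these copies, at 164 to 572 counts per library. Rps4x, the X-linked gene of a small subunit protein, had 1546 to 5578 counts.

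Many of these genes have processed pseudogenes, so the share of their 50-base words that also occur in another annotated transcript (GENCODE M21) was counted. The median share was 35.8% over the 80 genes, 26 genes shared 50% or more, and 3 shared none. Rpl35 shared the most, 95.1%. Across the 75 tested genes the share had a Spearman rho of -0.05 with the level per length and 0.04 with the log2 fold change between the fractions. The 25 genes with the highest shares ranged from 71.7 to 1533 RPKM. Values of single genes such as Rpl36a (85.5% shared) remain uncertain to the extent that reads of their copies were counted with them.

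Between the fractions, the ribosomal protein genes as a family lay slightly higher in GFP-HI, and no single one passed the test. Of the 75 tested genes, 61 had a positive log2 fold change (GFP-HI over GFP-LO) and 14 a negative one, with a median of 0.09 and a range of -0.33 to 0.38. Among all 11719 tested genes, 46.9% were positive and the median was -0.02. In edgeR's quasi-likelihood test with mouse as a block (Benjamini-Hochberg adjusted p under 0.05), 0 of the 75 were higher and 0 lower, where 55 genes of the table were higher (0.469%) and 7 lower (0.0597%). At an unadjusted p under 0.05, 10 of the 75 were higher (13.3%, against 4.3% of all tested genes) and 0 were lower (2.94% of all). Short genes outside the family at its level (42.5 CPM or more, histone genes left out) also had many such genes. Higher at that p were 17 of 80 under 500 bases and 4 of 36 of 500 to 700 bases. For 700 to 1000 bases it was 8 of 53, and for 1000 to 1500 bases 12 of 114. In these classes 83.8%, 77.8%, 69.8% and 62.3% were positive, against 47.5% of the 2624 longer ones. DESeq2, which gave 8311 genes an adjusted p, called 2 of the family higher, Rps20 (adjusted p = 0.0051) and Rps26 (adjusted p = 0.045), against 1.44% of those 8311 genes, and it called 0 of the family lower, against 0.277%. The CPM ranges of the fractions, which leave the pairing within mice out of account, overlapped for all 75 genes. The same count over all tested genes was not made, so whether this overlap is particular to the family is not known. Of the 75, 6 (8%) were higher in GFP-HI in each of the 6 mice, against 3.3% of all tested genes: Rps20, Rps27l, Rplp1, Rpl36a, Rpl37a and Rpl38 (Rpl37a lies outside the rule for named genes and was added after its values were seen). Among the short genes outside the family at its level, in the same order of length, it was 5 of 80, 2 of 36, 4 of 53 and 7 of 114.

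In the small subunit, 27 of 31 genes were positive, with a median log2 fold change of 0.11. Rps20 had the smallest p of the family. It lay at 415, 645 and 1077 CPM (lowest, median, highest) in the GFP-HI libraries and at 360, 532 and 927 CPM in the GFP-LO ones. The fractions overlap widely because the mice differ, but within each mouse GFP-HI was the higher library, by 0.10 to 0.49 on the log2 scale. Its log2 fold change was 0.28 ± 0.065 (SE; edgeR adjusted p = 0.12). Rps26, which lies at the mRNA exit channel, spanned 219, 309 and 1030 CPM in the GFP-HI libraries and 189, 286 and 880 CPM in the GFP-LO ones. It was higher in GFP-HI in 5 of 6 mice, the exception being B7F, with a log2 fold change of 0.29 ± 0.085 (SE; edgeR adjusted p = 0.28). Rps27l lay at 26, 39.3 and 66.7 CPM in the GFP-HI libraries and 19.8, 30.9 and 49.1 CPM in the GFP-LO ones, with a log2 fold change of 0.35 (edgeR adjusted p = 0.51). Its partner Rps27 had a log2 fold change of -0.33 with an SE of 0.65, on at most 34 counts in a library, which gives no usable direction.

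Other small subunit genes sat near 0. Rps3, which lines the mRNA entry channel, had 427, 530 and 723 CPM in the GFP-HI libraries and 423, 554 and 754 CPM in the GFP-LO ones, a log2 fold change of -0.01. Rps15a, the gene with the longest exons, had a log2 fold change below 0.01 in size. Rpsa, which doubles as the laminin receptor precursor, had 150, 200 and 496 CPM in the GFP-HI libraries and 147, 178 and 511 CPM in the GFP-LO ones, a log2 fold change of 0.08 with an SE of 0.069. Rps28, the shortest gene, was lower in GFP-HI in 5 of 6 mice, at 10.1, 20.1 and 43.4 CPM against 12.3, 23.1 and 57.2 CPM. Its log2 fold change was -0.22 with an SE of 0.22. The short Rps21 and Rps29 had log2 fold changes of 0.22 and 0.09.

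In the large subunit, 34 of 44 genes were positive, with a median log2 fold change of 0.08. Rpl36a, an E-site protein, had the highest fold change of the family. It lay at 25.7, 42.3 and 87.2 CPM in the GFP-HI libraries and 19.1, 34.6 and 67.5 CPM in the GFP-LO ones, was higher in GFP-HI in 6 of 6 mice and had a log2 fold change of 0.38 ± 0.11 (SE; edgeR adjusted p = 0.28). Rpl21 lay at 82.6, 118 and 256 CPM in the GFP-HI libraries and 47.3, 88.4 and 233 CPM in the GFP-LO ones. It was higher in GFP-HI in 5 of 6 mice, with a log2 fold change of 0.35 ± 0.11 (SE; edgeR adjusted p = 0.32). Without mouse B1M, the mouse in which Rpl21 was slightly lower in GFP-HI, its log2 fold change was 0.45 and edgeR called it (adjusted p = 0.040). Leaving out the mouse that goes the other way raises the fold change, so this call adds no support. With any other single mouse left out no family member was called, and the smallest edgeR adjusted p in the family was 0.10 (without B7F) to 0.41 (without B5M). Rpl14 lay at 221, 277 and 457 CPM against 192, 231 and 364 CPM, with a log2 fold change of 0.26 (edgeR adjusted p = 0.57). Rpl38, linked to translation of selected mRNAs in development, had a log2 fold change of 0.22 and Rpl32 one of 0.17.

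The 3 stalk genes had unlike values. Rplp1 lay at 477, 691 and 1178 CPM in the GFP-HI libraries and 440, 611 and 1021 CPM in the GFP-LO ones, and was higher in GFP-HI in 6 of 6 mice, with a log2 fold change of 0.26 ± 0.076 (SE; edgeR adjusted p = 0.32). Rplp0, the base of the stalk, lay at 602, 852 and 1568 CPM against 639, 815 and 1697 CPM, with a log2 fold change within 0.01 of 0. Rplp2, the partner of Rplp1, lay at 100.2, 169 and 232 CPM against 115, 163 and 192 CPM, a log2 fold change of 0.07. Whether the 3 differ from each other was not tested. Rpl4, the most abundant of all in CPM at 1093, 1336 and 1831 in GFP-HI, against 1033, 1336 and 1996 in GFP-LO, had a log2 fold change of -0.01 and an SE of 0.059. Rpl5, which with Rpl11 and 5S RNA can bind MDM2, had a log2 fold change of 0.03, Rpl3 one of 0.02, Rpl10 one of -0.02, Rpl39 one of 0.04 and Rpl22 one of 0.07. For the poorly counted Rpl34 (0.19), Rpl35a (-0.14) and Rpl29 (0.08), the SE was 0.20 to 0.79.

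The family's shift was not the same in every mouse. Summed over the 80 genes, the 6 GFP-HI libraries lay at 17247 ± 5815 CPM (SD, n = 6) and the 6 GFP-LO libraries at 16195 ± 6141 CPM (SD, n = 6). In B1M the sums were 26246 CPM for GFP-HI and 26866 CPM for GFP-LO, and in B7F they were 14165 and 15419 CPM. GFP-LO was thus the higher library in these mice. In B3M the sums were 22013 and 19570 CPM, and in B4M 17125 and 13406 CPM, the widest gap. In B5M they were 11771 and 10871 CPM and in B7M 12161 and 11039 CPM, so GFP-HI was higher in 4 of 6 mice. On the log2 scale the difference was 0.10 ± 0.17 (SD, n = 6 mice), smaller than its spread between mice.

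**Figure D2:**
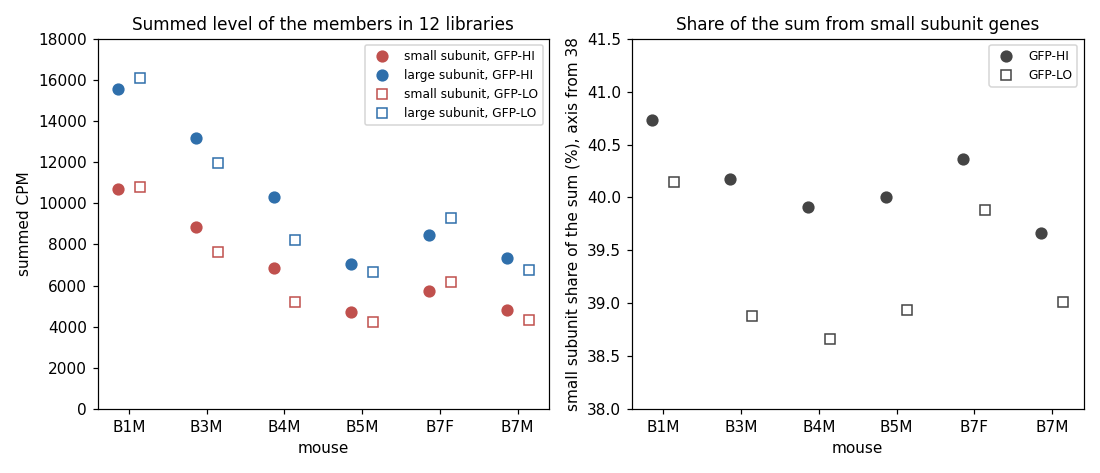
Left, summed CPM of the small subunit (red) and large subunit (blue) genes in each library, by mouse, with filled circles for GFP-HI and open squares for GFP-LO. Right, the share of the sum that comes from small subunit genes (axis from 38%); the sums vary more between mice (10871 to 26866 CPM for both subunits together) than between fractions, and the share is higher in GFP-HI in each mouse.

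Small and large subunit genes had similar fold changes, with a small offset. The small subunit's share of the summed CPM was 40.1% ± 0.37 in GFP-HI, against 39.3% ± 0.61 in GFP-LO (SD, n = 6 each). It was higher in GFP-HI in 6 of 6 mice, by 0.02 to 0.05 on the log2 scale of the share. The direction held in all 6 mice when each of the 75 tested genes was left out in turn, with a mean difference of 0.62 to 1.11 percentage points. On the RPKM scale the share was 44.4% ± 0.67 in GFP-HI, against 43.5% ± 0.83 in GFP-LO, again higher in 6 of 6 mice. Small subunit genes are the shorter group, with a median of 602 bases against 776.5 for the tested large subunit genes, and length itself went with the fold change, as follows.

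The shorter ribosomal protein genes had the higher fold changes. The 15 genes under 500 bases had a median log2 fold change of 0.21, with 14 positive. The 22 genes of 500 to 700 bases had a median of 0.10 and the 21 of 700 to 1000 bases also 0.10, with 18 positive in each. The 10 genes of 1000 to 1500 bases had a median of 0.01, with 6 positive, and the 7 longer ones 0.06, with 5 positive. Over the 75 genes Spearman's rho between log2 fold change and exonic length was -0.32, with -0.38 in the 31 small subunit genes and -0.21 in the 44 large subunit genes. These are descriptions across genes that share the same 12 libraries. The relation was weak in single mice, from -0.33 in B1M to -0.04 in B3M, and without B1M rho over the family was -0.19.

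Among other genes at the family's level, medians were also higher in the shorter classes, and no difference from the family was tested. Of the other genes at 42.5 CPM or more (histone genes left out), those under 500 bases had a median log2 fold change of 0.16 (80 genes, with a median length of 112 bases against 448 for the ribosomal protein genes of that class), those of 500 to 700 bases 0.09 (36 genes), those of 700 to 1000 bases 0.05 (53 genes) and those of 1000 to 1500 bases 0.06 (114 genes). The 2624 longer ones had a median of -0.01. Over the 509 such genes under 2000 bases, many of them shorter than any family member, rho with length was -0.31. Over the 1881 within the length range of the family it was -0.12, and over all 2907 at that level it was -0.13. Each ribosomal protein gene was then set beside the other genes within 1.5-fold of its length and within 2-fold of its level. At least 10 such genes existed for 67 of the 75 (27 small and 40 large subunit), between 10 and 1225 and with a median of 48. The 67 had a median log2 fold change of 0.09 and the medians of their similar genes had a median of 0.07. The median difference was 0.02, and 38 of the 67 lay above their similar genes. The difference was 0.03 for small and 0.02 for large subunit genes. With histone genes kept among the similar genes it was -0.03, and in the fit without the mouse block -0.01, so the sign of the difference turned with these settings.

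**Figure D3:**
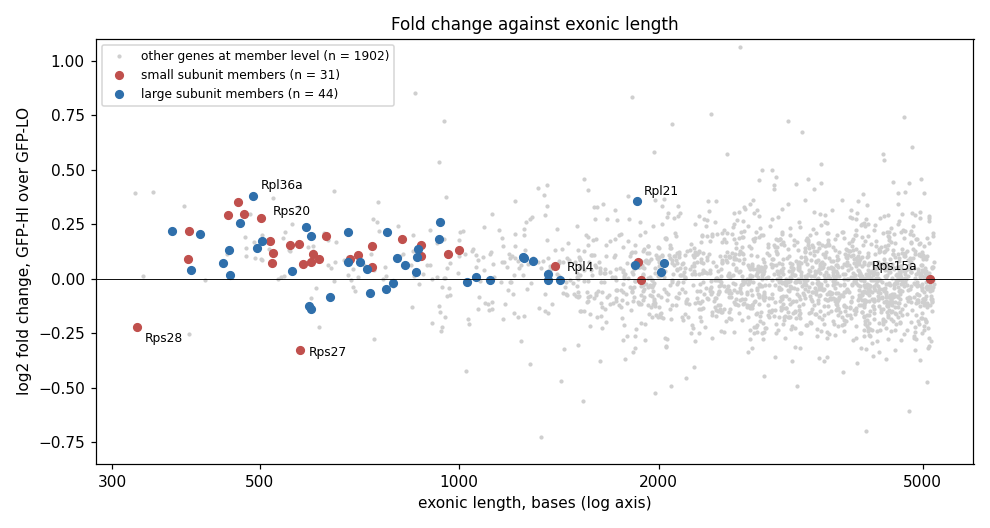
Log2 fold change (GFP-HI over GFP-LO) against exonic length in bases (log axis) for the 31 small subunit (red) and 44 large subunit (blue) genes, over 1902 other genes at the level of the family (grey, histone genes left out). The 15 family members under 500 bases lie mostly above 0 (14 of 15), those over 1000 bases lie near 0 apart from Rpl21; the grey points are spread on both sides of 0.

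Set mouse by mouse, the medians of the family and of the similar genes had the same sign in 5 of 6 mice. For the 67 genes the median difference GFP-HI minus GFP-LO (log2 CPM) was 0.32 in B4M, where the similar genes had 0.39. It was -0.13 in B7F, where the similar genes had -0.16, and 0.15 in B3M, where they had 0.14. In B5M the values were 0.13 and 0.06, in B7M 0.13 and 0.04, and in B1M -0.07 and 0.04. The number of the 67 above their similar genes was lowest in B1M (22) and highest in B7M (45), and the other 4 mice had 33 to 41. Basal markers summed to 22527 CPM (GFP-HI) and 23401 CPM (GFP-LO) in B4M and to 13812 and 16592 CPM in B7F. Suprabasal markers also differed between the libraries of a mouse, at 1450 CPM (GFP-HI) and 627 CPM (GFP-LO) in B4M, the mouse with the largest shift, and at 1545 and 1203 CPM in B7F. Krt13, a suprabasal keratin, had a log2 fold change of 0.42 (edgeR adjusted p = 0.65) and was higher in GFP-HI in 4 of 6 mice. The suprabasal genes did not all share this direction: of the 4 tested, 3 were positive and 1, Krt4, was negative. Krt4 had a log2 fold change of -0.58 with an SE of 0.44 (edgeR adjusted p = 0.81), with GFP-HI the higher library in 3 of 6 mice. The part of these markers in the result was not tested.

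**Figure D4:**
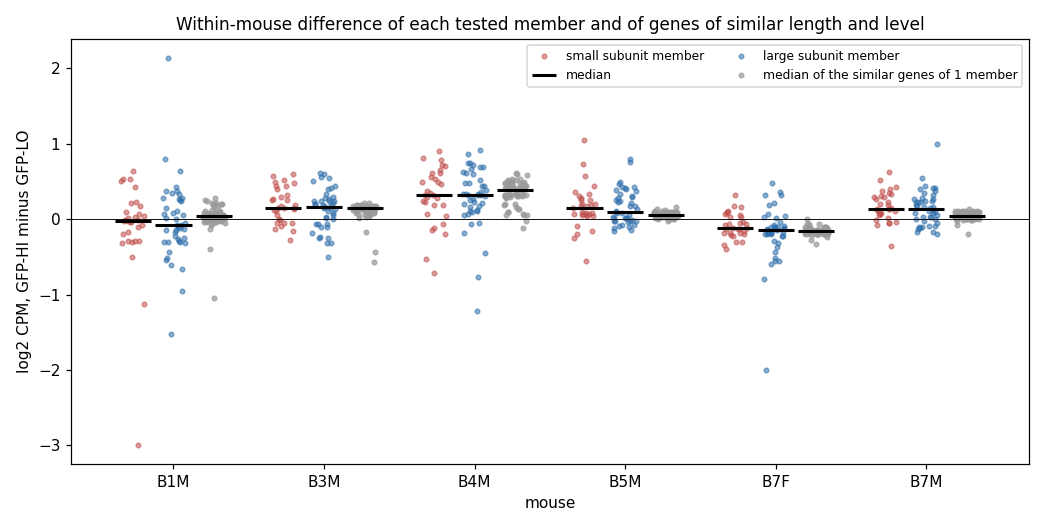
Within-mouse difference in log2 CPM (GFP-HI minus GFP-LO) of every tested small subunit (red) and large subunit (blue) gene, beside the median difference of the genes similar to each of 67 of them (grey). Black bars are medians; they sit highest in B4M (0.32 for the 67 genes and 0.39 for their similar genes) and below 0 in B7F for all 3 sets.

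The larger variation was between mice rather than between fractions. For the 75 genes the SD between mice of the mean of a mouse's libraries was 0.56 on the log2 scale (median over genes), against 0.33 for all tested genes. Other genes at the family's level had 0.20 (1500 bases or more) to 0.37 (500 to 700 bases), the 80 under 500 bases had 0.62, and the histone genes had 0.62. The SD of the within-mouse difference was 0.27 for the 75 genes, close to the 0.24 to 0.32 of other genes of 500 bases or more at that level, and 0.48 for all tested genes. In B1M the family's median lay 0.79 above the mean of the 6 mice on the log2 scale, and in B3M 0.42 above. It lay 0.08 below that mean in B4M and 0.11 below in B7F. In B5M it lay 0.50 below and in B7M 0.46 below. B1M was the highest mouse for 64 of the 75 genes (85.3%), where it was highest for 24.5% of all tested genes. Of other genes at the family's level, it was highest for 55.6% (500 to 700 bases), 58.5% (700 to 1000 bases) and 53.5% (1000 to 1500 bases). It was highest for 8.75% of those under 500 bases and 28.0% of those of 1500 bases or more. The family's share of counts without Rn45s, which no scaling enters, was 4.29% and 4.54% in the B1M libraries and at most 3.71% in the others.

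Single members showed how wide this range was. Rps2, a small subunit protein near the mRNA entry, had 340 CPM (GFP-HI) and 218 CPM (GFP-LO) in B1M, and 41.9 and 44.4 CPM in B7M; its SD between mice, 1.11 on the log2 scale, was the largest. Rps13 had 168 and 206 CPM in B1M and 44.2 and 26.5 CPM in B5M (these genes were added after their values were seen). Rps26 had 1030 and 880 CPM in B1M and at most 614 CPM in any other library. At the other end, Rps3 (SD 0.26), Rpl4 (SD 0.31), Rpl22 (SD 0.23) and Rpl35a (SD 0.19) had SDs below the all-gene median of 0.33. The share of shared 50-base words went weakly with this spread, with a rho of 0.30 across the 75 genes.

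Genes of similar length and level shared this spread in part. The genes similar to the 67 matched members lay 0.34 above the mean of the mice in B1M, where the 67 members lay 0.81 above, and 62 of the 67 exceeded their similar genes. In B3M the values were 0.17 for the similar genes and 0.43 for the members, with 53 of 67 above. In B5M the similar genes lay at -0.25 and the members at -0.51, with 7 of 67 above. In B7M the values were -0.35 and -0.46, and in B4M 0.16 and -0.10. Fewer genes were detected in B1M (12312 in GFP-HI, 13101 in GFP-LO) and B3M (12810 and 14872) than in the other libraries (15474 to 19023). Rn45s took 31.5% to 35.9% of counts in the libraries of B1M and B3M and 36.3% to 59.8% in the others. The part of these library properties in the levels was not tested, and age cannot be told apart from mouse B7F, the single older animal.

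**Figure D5:**
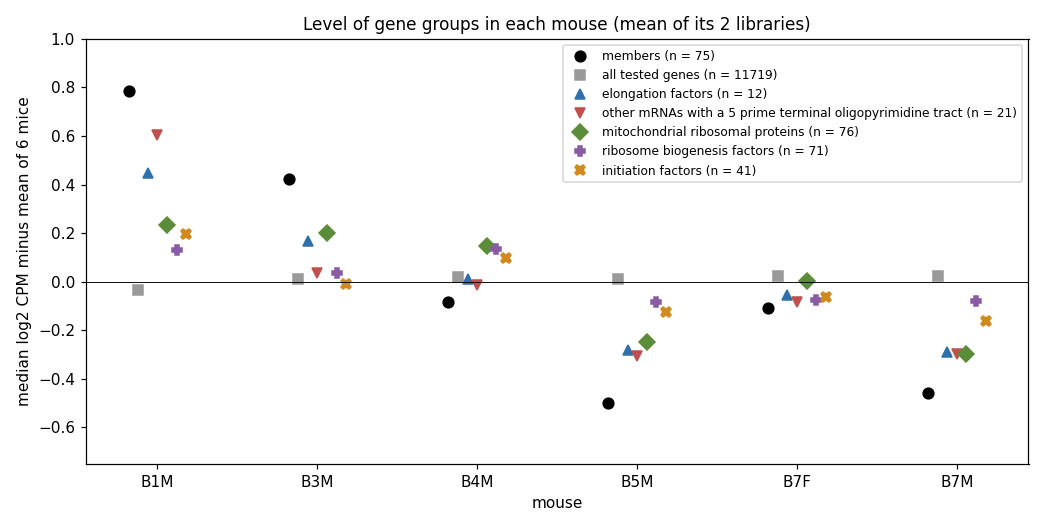
Median log2 CPM of gene groups in each mouse (mean of its GFP-HI and GFP-LO library) minus the mean of the 6 mice, by mouse. The 75 ribosomal protein genes (black) span 0.79 in B1M to -0.50 in B5M, elongation factors and other TOP mRNAs lie between them and 0 in these mice, and all tested genes (grey squares) stay near 0.

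Other genes of translation, from fixed lists, shared the order of mice in part. The 21 other genes whose mRNAs carry a TOP tract lay 0.61 above the mean of the mice in B1M and 0.04 above in B3M. The 12 tested elongation factors, some of them in the same list, lay 0.45 above in B1M and 0.17 above in B3M. The 7 ribosomal proteins outside the symbol rule lay 0.41 and 0.22 above. Mitochondrial ribosomal proteins, which belong to the separate ribosome of that organelle, lay 0.23 and 0.20 above. The 71 ribosome biogenesis factors (0.13 and 0.04) and the 20 genes of RNA polymerase I and its factors (-0.03 and 0.06), which make and process ribosomal RNA, showed little of it.

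In the comparison of fractions no gene of these lists was called by edgeR, where 0.469% of all tested genes were called higher and 0.0597% lower. Of the 7 ribosomal proteins outside the symbol rule, 5 were positive, with a median log2 fold change of 0.11. Gnb2l1, the scaffold protein RACK1 of the small subunit, lay at 1306 ± 302 CPM in the GFP-HI libraries and 1206 ± 239 CPM in the GFP-LO ones (SD, n = 6 each), a log2 fold change of 0.11. Of the 21 other TOP genes 18 were positive, with a median of 0.07, among them Npm1, a nucleolar chaperone, at 0.11 and higher in 6 of 6 mice. Of the 12 elongation factors 3 were positive (median -0.06), of the 41 initiation factors 14 (median -0.09) and of the 71 biogenesis factors 20 (median -0.09). Of the 20 genes of RNA polymerase I and its factors 6 were positive (median -0.12), and of the 76 mitochondrial ribosomal proteins 35 (median -0.03). Of the 20 growth control genes 8 were positive (median -0.02); Larp1, which binds TOP mRNAs, was lower in GFP-HI in 6 of 6 mice with a log2 fold change of -0.18 (edgeR adjusted p = 0.66). The p53 sensing list had 4 of 6 positive and the small nucleolar RNA host genes 4 of 9. Exonic length differs among these lists: the median was 815 bases for the ribosomal proteins outside the rule, 1718 for the other TOP genes, 2409 for initiation factors and 2598 for biogenesis factors. The mitochondrial ribosomal proteins (1053 bases) and host genes (742 bases, median -0.05) were shorter lists with negative medians. Most genes of both lists lay below the 42.5 CPM limit used for the comparison by length. Without that limit, the 1079 other genes of 1000 to 1500 bases had a median of -0.03, against 0.06 for the 114 above it. Those of 700 to 1000 bases had 0.04 (455 genes), against 0.05 (53 genes). The part of length and level in the medians of the lists was not tested.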

How the data were processed

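RNA of sorted palatal basal cells (200 to 1000 cells per sample, NuGEN SoLo libraries, per the labels' protocols) gave 12 libraries. The deposited table holds whole-number read counts per gene that were not normalised, with exon intervals, strand and length per the file headers; the length equals the union of the exon intervals for all 23420 genes. Per the submitters' processing notes, the tools included featureCounts and DESeq2 (also bcl2fastq 2.20.0, FastQC and R 3.4.1), and the builds named are GRCm38 and mm10. Not given in the sources used here are the aligner, the strand setting and the treatment of multi-mapping or ambiguous reads. Every count column matched a library by name, and 0 were left unused.

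The counts were fitted in edgeR 4.0.16 (R 4.3.3): expression filter by group (minimum count 10, minimum total 15), TMM scaling and a robust two-sided quasi-likelihood test with mouse as a block. The titles give both libraries of a mouse the same animal code, and the deviations of the pair from the group means correlated at 0.23 to 0.49. P-values weigh the difference between the fractions against how much that within-mouse difference varied over these 6 mice. The estimate of that variation for a gene also draws on the other genes. The SE of an edgeR log2 fold change is its size divided by the square root of the test's F statistic. The gene test was also run on counts simulated from its own fitted model. Such counts meet the model's assumptions by construction, so they cannot test those assumptions for these libraries. Log2 CPM used a prior count of 2. Intervals for zero counts cover counting error only, since amplified reads are not independent molecules. Named genes are the 8 with the smallest p, the 4 highest and lowest per length, the 4 longest and shortest, the stalk genes and Rpsa, the 4 with the largest and smallest SD of the within-mouse difference, copies named with l, x or y and their partners, the untested genes and, of each list, up to 3 genes with the smallest p. Rps3a1 was added to a list after the table was seen. Some named genes are not reported here. The members and all lists were chosen with earlier results of these data known. Alternatives were DESeq2 1.42.0, other scalings and filters, no mouse block, other definitions of similar genes, and fits without single mice or without B1M and B3M.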

Additional observations from a re-analysis of the deposited data

Results flagged for a closer look

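Looked at were 62 groups of 6 libraries, each the GFP-HI or GFP-LO values of a named gene or of the family's sums. Of these, 5 held a library far from the others. Chance alone marks about 1 group in 20 where groups are independent and values normally distributed. These groups come from the same 12 libraries, so that rate is no measure of how unusual the 5 are. All 5 were libraries of mouse B1M, the highest mouse for 85.3% of the 75 tested genes. In GFP-LO of B1M, Rps26 had 880 CPM (next library 405), Rpl5 372 CPM (next 189), Rpl39 274 CPM (next 99.5) and Rps28 57.2 CPM (next 23.7). In GFP-HI of B1M, Rpl29 had 33.5 CPM (next 18.9).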

How the results depend on the processing

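The number of tested ribosomal protein genes with a positive log2 fold change was 50 to 71 over all settings, and their median stayed positive. The number called higher was 0 in edgeR, 2 in DESeq2, 0 to 1 with single mice left out (the call is Rpl21, without B1M, at 0.45) and 1 without B1M and B3M (Rpl21, at 0.44). DESeq2 gave Rps20 0.28 and Rps26 0.30. Without the replicate block, 0 family members and 0 genes of the table were called, and 0 family members had an unadjusted p under 0.05, where 293 genes were higher and 147 lower at that p. Spearman's coefficient with length was -0.34 to -0.19 with single mice left out (-0.19 without B1M), -0.21 without B1M and B3M, and -0.18 as Pearson's r on log2 length. Calls over all genes, 55 higher and 7 lower, became 127 and 45 with no count filter, 120 and 23 in DESeq2, 117 and 34 without B1M and B3M, and 29 to 81 and 2 to 14 with single mice left out (29 and 4 without B3M, 30 and 2 without B4M, 14 lower without B1M, 3 lower without B5M, 4 lower without B7M). The median of all genes moved by under 0.1 in each. Several named genes near 0 changed sign, and the cause was not tested. With single mice left out, log2 fold changes ran from -0.12 to 0.063 for Rpl10, -0.041 to 0.17 for Rpl22, -0.074 to 0.20 for Rpl29, -0.029 to 0.081 for Rpl3, -0.21 to 0.68 for Rpl34, -0.27 to 0.12 for Rpl35a, -0.13 to 0.17 for Rpl39, -0.029 to 0.021 for Rpl4, -0.072 to 0.23 for Rpl5, -0.060 to 0.034 for Rplp0, -0.14 to 0.069 for Rps15a, -0.57 to 0.11 for Rps27 and -0.086 to 0.052 for Rps3. Without B1M and B3M they were 0.065 for Rpl10, -0.44 for Rpl34, 0.23 for Rpl35a, 0.039 for Rpl4, -0.022 for Rplp2, 0.081 for Rps15a, 0.037 for Rps28 and 0.075 for Rps3. Size factors by relative log expression gave Rpl4 0.0029, Rplp0 0.0033, Rps15a 0.0077 and Rps3 0.00033, and DESeq2 0.0027, 0.0034, 0.0079 and 0.00025. Upper-quartile factors gave Rpl3 -0.0071, a minimum count of 50 gave Rps15a 0.0024, and the fit without the replicate block gave Rpl3 -0.0073, Rpl5 -0.044 and Rplp0 0.0075.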
